A study of Mus musculus with 9 samples.

Results

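Translation initiation and elongation factors are 64 of the 22046 protein-coding genes, among 54532 genes in all, in the deposited table. They are the protein-coding genes whose symbols begin with Eif1 to Eif6, Eef1 or Eef2. Of 78 symbols that match, 10 belong to pseudogenes or non-coding RNAs and 4 to the Eif2ak kinases, which phosphorylate eIF2 and are counted apart below. The members were grouped by name, mostly by the complex their proteins build. There are 14 genes of eIF3, 11 of eIF4F and its helicase cofactors, 8 of start codon selection and subunit joining, and 6 of eEF1. Further groups hold 6 carriers of initiator tRNA, 5 subunits of eIF2B, 5 methyltransferases of elongation factors and 4 proteins that bind eIF4E. The rest are 2 forms of eIF5A, eEF2 with its kinase, and Eif4a3. Eif1ad stands with start codon selection and Eef1e1 with eEF1 by name alone.

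Translation starts when eIF2 with GTP delivers the initiator tRNA to the small ribosomal subunit, which eIF3 holds and eIF4F, the cap-binding complex, brings to the capped end of an mRNA. The ribosome then scans to the start codon under the control of eIF1, eIF1A and eIF5, eIF2B recharges eIF2 with GTP, and eEF1 and eEF2 drive each round of elongation. The pathway is known in tumour cells for its control by the mTOR kinase, which inactivates the eIF4E binding proteins, and by stress kinases that phosphorylate eIF2.

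The data are read counts from 9 libraries of polyadenylated RNA of 4T1 cells, an established mouse mammary carcinoma line often used to model triple-negative disease. All cells were grown in high-glucose DMEM with serum and antibiotics. The 3 Control libraries come from cells given medium alone, the 3 Cu_TCPP libraries from cells given Cu-TCPP(Fe)-PEG, a copper-containing material that the labels list under consumed glutathione (GSH), and the 3 Au_TCPP libraries from cells given Au/Cu-TCPP(Fe)-PEG, which carries gold as well and is listed under both glucose-oxidase-like action and consumed GSH. The treatments are given as 24 h, with no dose in the sources used here, and no genetic change is named for any group. All 3 groups are 1 cell line, and the labels do not say whether libraries of a group are separate cultures, so the p-values reflect the spread between libraries alone, and that spread may be technical.

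Library totals lay between 15477324 and 17494776 counts. The 5 epithelial markers looked at (Epcam, Cdh1, Krt8, Krt18, Krt19) were all expressed, with summed levels of 2180 to 2360 CPM in Control, 2300 to 2510 with Cu_TCPP and 3240 to 4120 with Au_TCPP. With Cu_TCPP, Krt8 rose (0.45) while Epcam (-0.35) and Cdh1 (-0.22) fell. Here CPM are counts scaled to a common library total with edgeR's TMM factors. All 3 endothelial markers, 3 of 4 macrophage markers (Csf1r, Adgre1, Ptprc), 2 of 3 lymphocyte markers and 2 of 4 fibroblast markers stayed under 1 CPM in every library. The summed fibroblast list, mainly Pdgfra, was 35.1 to 40.6 CPM in Control, 16.3 to 19.7 with Cu_TCPP and 26.7 to 31.7 with Au_TCPP. The summed macrophage list, which is almost wholly Cd68, was 25.3 to 29.1 CPM in Control, 9.18 to 13.5 with Cu_TCPP and 53.4 to 75.2 with Au_TCPP. The part of these marker levels in the results was not tested. The Au_TCPP libraries stood apart in the length of the genes their counts came from, on average 4607 ± 60.2 nt (SD, n = 3) against 5688 ± 61.6 in Control and 5650 ± 62.4 with Cu_TCPP. Replicate 2 of Au_TCPP had 2.37% of its counts on mitochondrial genes, where the other 8 libraries had 1.09% to 1.47%. In bulk RNA, less RNA of a gene per cell and fewer cells that make it cannot be told apart.

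Of the 64 genes, 60 had enough counts to be tested. Eif2s3y, Eif4e1b and Eif4e3 had no count in any library. Eef1a2, the tissue-restricted form of eEF1A, had 8, 0 and 8 counts in the Au_TCPP libraries, 0, 1 and 1 with Cu_TCPP and none in Control, too few to test.

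Both materials were followed by more translation factor genes higher than lower. With Cu_TCPP, 29 of the 60 genes rose (48.3%) and 4 fell (6.67%), where 19.2% of all 13915 genes tested were higher and 21.2% lower than in Control. The median log2 fold change of the 60 was 0.23 against -0.01 over all genes, and 1 of them, Eif1ad, rose by at least 1. With Au_TCPP, 44 rose (73.3%) and 8 fell (13.3%), where 34.4% of all genes were higher and 34.7% lower. Their median was 0.71 against -0.01 over all genes, with 17 risen and 3 fallen by at least 1. Between the materials, 34 were higher with Au_TCPP (56.7%) and 11 lower (18.3%), where 34.6% of all genes were higher and 31.3% lower, with medians of 0.39 for the factors and 0.04 for all genes (16 higher and 21 lower with library totals alone). The 3 comparisons share libraries in pairs and are not independent. Calls are adjusted p-values under 0.05 from edgeR's quasi-likelihood test, adjusted over all genes tested. With these TMM factors the share of risen factors lay above the background in each comparison, and that of fallen factors below it.

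**Figure D1:**
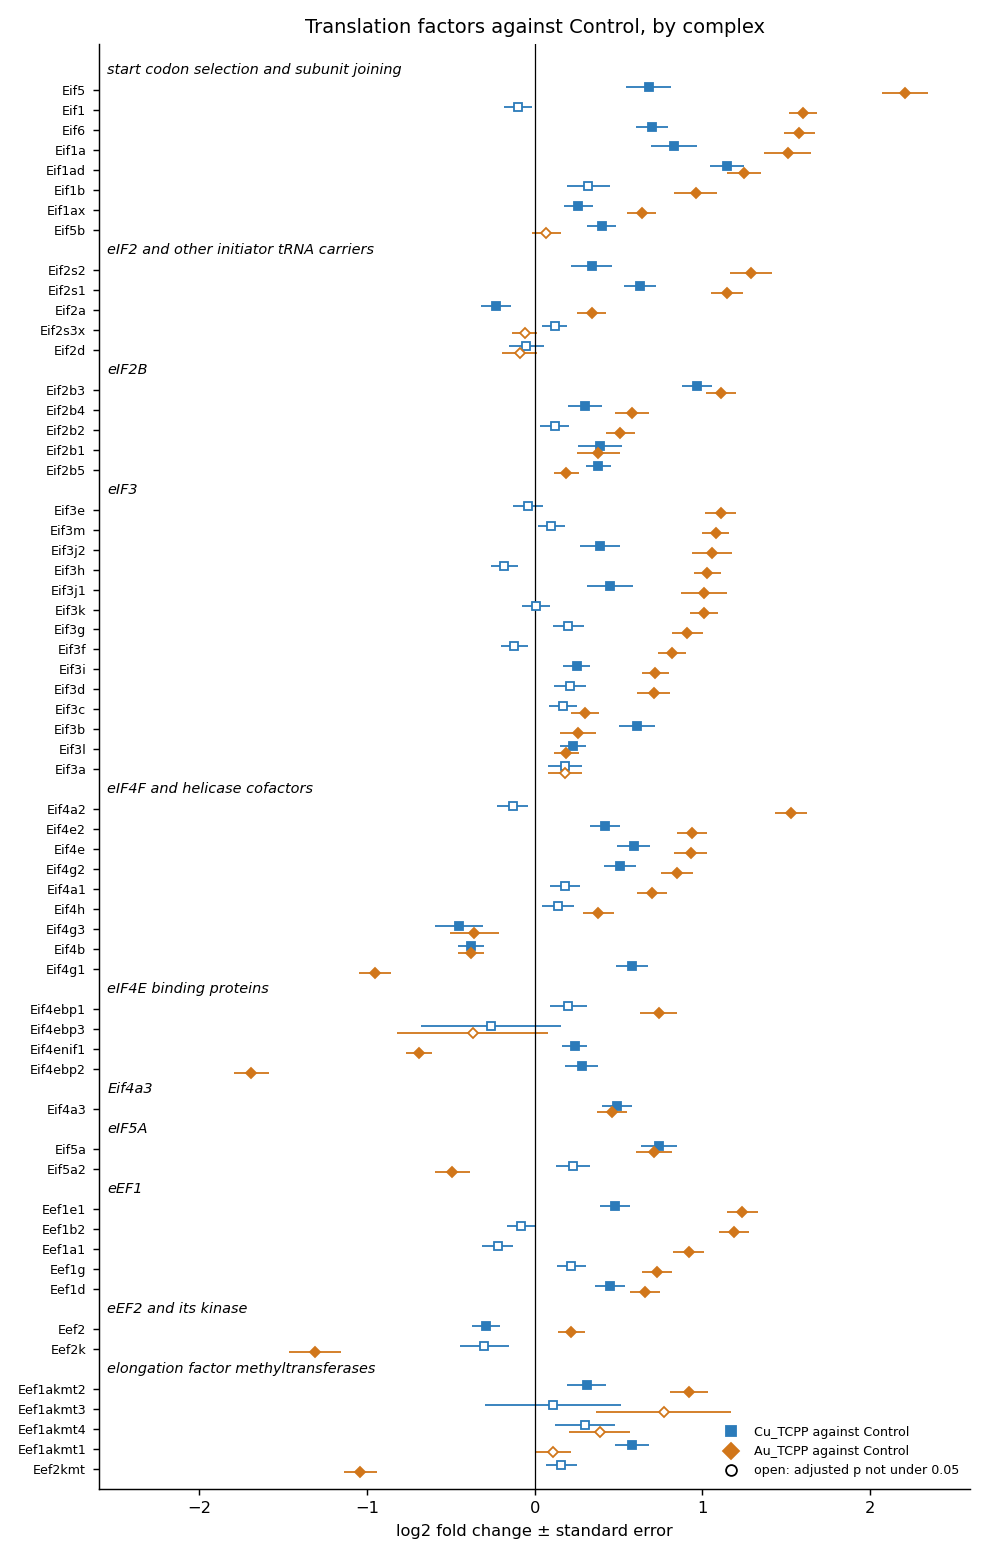
Log2 fold change against Control (x axis, with standard error) of the 60 tested genes, in rows by complex, for Cu_TCPP (squares) and Au_TCPP (diamonds), with filled symbols for an adjusted p under 0.05. Values with Au_TCPP reach from -1.69 for Eif4ebp2 to 2.21 for Eif5, while those with Cu_TCPP lie between -0.45 for Eif4g3 and 1.15 for Eif1ad.

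The split between risen and fallen genes depended on the scaling of the Au_TCPP libraries. With library totals alone in place of TMM factors, the median of all genes moved to -0.43 for Au_TCPP against Control and to -0.33 for Au_TCPP against Cu_TCPP. The factors then had a median of 0.28 with 33 risen and 16 fallen against Control, and a median of 0.01 with 16 higher and 21 lower against Cu_TCPP. For Cu_TCPP against Control the same scaling gave 25 risen and 6 fallen. Beside the fit reported here, 20 others were made with another scaling, filter, test or set of libraries. In Au_TCPP against Control, 33 risen and 7 fallen factors kept their call in all 20, and in Cu_TCPP against Control 18 risen factors and 1 fallen one, Eif4b.

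Calls with Cu_TCPP rested more on single libraries. Without Control replicate 1 or Control replicate 2, 19 factors rose in place of 29, and 2 fell. Without Control replicate 3 or Cu_TCPP replicate 1, 1 factor fell, and without Au_TCPP replicate 2, which enters through the shared estimate of spread, 38 rose and 7 fell. The rises that ended without at least 1 library were those of Eef1akmt2, Eif1ax, Eif2b1, Eif2b4, Eif2s2, Eif3i, Eif3j1, Eif3j2, Eif3l, Eif4ebp2 and Eif4enif1, with adjusted p between 0.051 and 0.15. The falls that ended were those of Eef2, Eif2a and Eif4g3, with adjusted p between 0.057 and 0.22. Each of the 3 Control libraries and Cu_TCPP replicates 1 and 3 ended 10 to 12 of these calls when left out, and Cu_TCPP replicate 2 ended 4. In Au_TCPP against Control, leaving out 1 library ended the calls of Eef2, Eif2b1, Eif2b5, Eif3b, Eif3l or Eif4g3, 2 to 6 at a time, with adjusted p between 0.051 and 0.23.

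Gene length moved with the Au_TCPP comparison. Over all genes its median log2 fold change went from 0.67 in genes of up to 1000 nt to -0.45 in genes over 8000 nt. The translation factors were above the median of all genes in 6 of 7 length classes and below it in the shortest. At up to 1000 nt the 2 factors were at -0.13 against 0.67 for all genes, the 6 of 1000 to 2000 nt 0.91 against 0.36, the 19 of 2000 to 3000 nt 0.82 against 0.18, and the 7 of 3000 to 4000 nt 0.26 against 0.02. The 11 of 4000 to 6000 nt had 0.64 against -0.18, the 12 of 6000 to 8000 nt 0.80 against -0.21, and the 3 over 8000 nt 0.07 against -0.45. The 8 fallen factors were longer (median 6077 nt) than the 44 risen ones (median 3074 nt). With offsets for gene length in each library, 43 rose and 8 fell, and 41 and 7 of these were the genes called without the offsets. The part of RNA quality or library preparation in the difference in length was not tested.

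**Figure D2:**
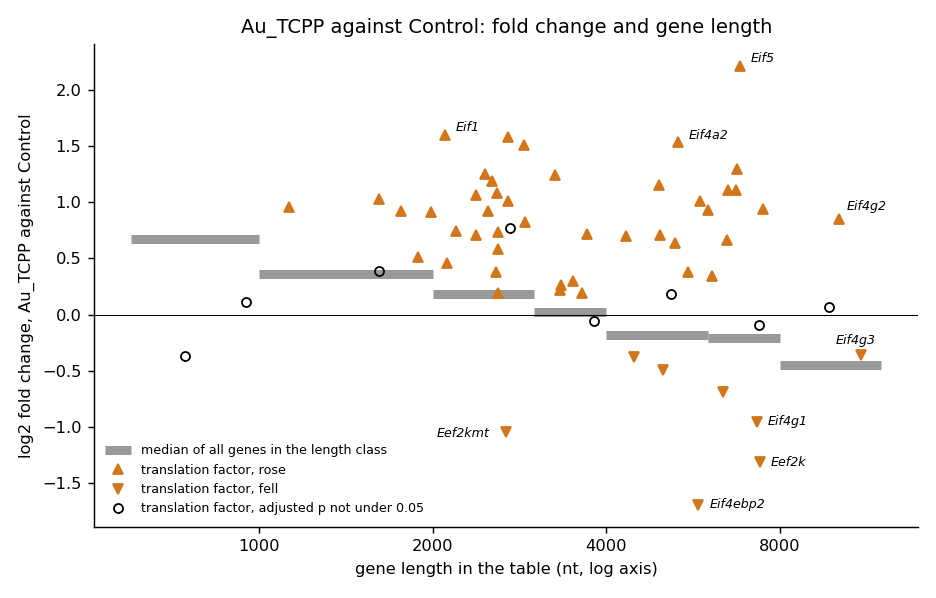
Log2 fold change of Au_TCPP against Control (y axis) and gene length (x axis, log scale) for the 60 tested genes, with the median of all genes in each length class as a grey bar. The grey bars descend from 0.67 to -0.45, and Eif5, Eif4a2 and Eif4g2 lie far above the bars of their length while Eif4g1, Eef2k and Eif4ebp2 lie below theirs.

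The genes of start codon selection and subunit joining had the highest median of the 11 groups against Control with either material. Of 8, 6 rose with Cu_TCPP (median log2 fold change 0.54) and 7 with Au_TCPP (median 1.38), and none fell; with library totals alone 7 rose and 1, Eif5b, fell with Au_TCPP (median 0.95). Eif5, which makes eIF2 hydrolyse its GTP at the start codon, had 381, 338 and 347 CPM in the Control libraries, 611, 521 and 577 CPM with Cu_TCPP and 1706, 1249 and 1961 CPM with Au_TCPP. All libraries of the 3 groups were apart, in the order Control, Cu_TCPP, Au_TCPP. The log2 fold change of Eif5 was 0.68 ± 0.133 (SE), adjusted p = 0.001, for Cu_TCPP and 2.21 ± 0.138 (SE), adjusted p = 5.2e-09, for Au_TCPP, a 4.61-fold rise. Eif1, which guards against initiation at wrong codons, had 399, 395 and 429 CPM in the Control libraries, 396, 365 and 382 CPM with Cu_TCPP and 1273, 1170 and 1260 CPM with Au_TCPP. The Cu_TCPP values overlapped those of Control, and every Au_TCPP library was above all others. Eif1 did not pass the test with Cu_TCPP (-0.10, adjusted p = 0.36) and rose with Au_TCPP, by 1.60 ± 0.083 (SE), adjusted p = 9.1e-10.

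Eif6, which keeps large ribosomal subunits from joining small ones too early, had 111, 116 and 114 CPM in the Control libraries, 165, 202 and 184 CPM with Cu_TCPP and 333, 320.3 and 365 CPM with Au_TCPP. The 3 groups did not overlap, and Eif6 rose by 0.70 with Cu_TCPP and by 1.58 with Au_TCPP (adjusted p = 5.3e-05 and 3.3e-09). Eif1a, one of the genes of the scanning factor eIF1A, rose by 0.83 and 1.51, and Eif1ad, named for its eIF1A domain, by 1.15 and 1.25, each with Cu_TCPP and Au_TCPP in that order. Eif1ax, the other eIF1A gene, rose by 0.26 and 0.64. Eif1b, the close copy of Eif1, was at 0.32 with Cu_TCPP, short of the threshold, and rose by 0.96 with Au_TCPP. Eif5b, the GTPase that joins the subunits, went another way: it had 138, 141 and 129 CPM in the Control libraries, 197, 166 and 175 CPM with Cu_TCPP and 144, 135 and 151 CPM with Au_TCPP. It rose with Cu_TCPP (0.40, adjusted p = 0.0024), while the Au_TCPP and Control libraries overlapped (0.07, adjusted p = 0.46). Eif5b is 9753 nt long, and with Au_TCPP it was called as risen with offsets for gene length and as fallen with library totals alone. In Eif5b, 16.9% of its exonic bases lie under exons of Rev1 on the opposite strand. For Eif1ad, 15.3% of the exonic bases overlap Banf1, and for Eif1b 12.7% overlap an antisense gene. No source used here says if strand was used in counting.

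**Figure D3:**
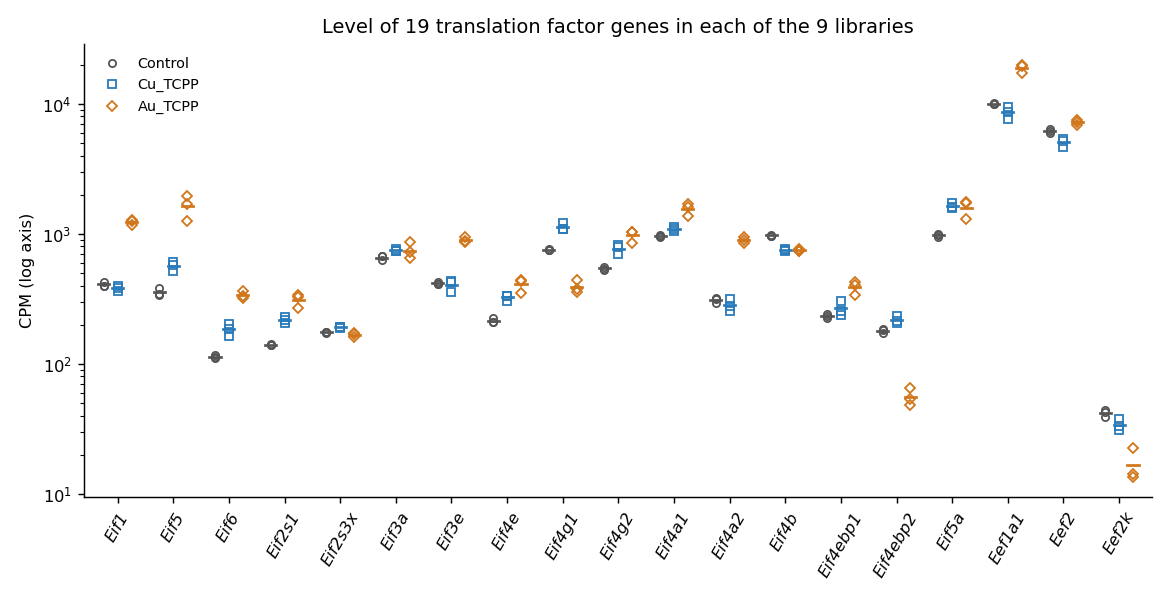
CPM (y axis, log scale) of 19 translation factor genes in each of the 9 libraries, as symbols by group, with the group mean as a bar. Eif1, Eif5, Eif6 and Eif4a2 are higher in every Au_TCPP library than in any other, and Eif4g1, Eif4ebp2 and Eef2k are lower.

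Among the carriers of initiator tRNA, the subunits of eIF2 did not move alike. Eif2s1, the alpha subunit that stress kinases phosphorylate, had 141, 140.3 and 141 CPM in the Control libraries, 228, 207 and 219 CPM with Cu_TCPP and 325, 269 and 339.8 CPM with Au_TCPP, with no overlap between any groups. It rose by 0.63 ± 0.095 (SE), adjusted p = 0.00013, with Cu_TCPP and by 1.15 ± 0.095 (SE), adjusted p = 8.0e-08, with Au_TCPP. Between the materials Eif2s1 was higher with Au_TCPP by 0.51, but was at 0.14, not passed, with library totals alone. Eif2s2, the beta subunit, rose by 0.34 and 1.29 (adjusted p = 0.04 and 4.0e-07). Eif2s3x, the gamma subunit that binds GTP and the tRNA, had 175, 177 and 174 CPM in the Control libraries, 192, 189 and 192 CPM with Cu_TCPP and 171, 162 and 172 CPM with Au_TCPP. It did not pass the test against Control with either material, at 0.12 and -0.06, and was lower with Au_TCPP than with Cu_TCPP (a log2 fold change of -0.18, adjusted p = 0.041).

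Eif2a, a separate factor that can bring the initiator tRNA without GTP, had 144, 135 and 133 CPM in the Control libraries, 123, 104 and 125 CPM with Cu_TCPP and 175, 173 and 173 CPM with Au_TCPP. It fell with Cu_TCPP (-0.23, adjusted p = 0.046) and rose with Au_TCPP (0.34, adjusted p = 0.0029). Its fall was lost in 14 of the 20 other fits, and with library totals alone its value with Au_TCPP was -0.08. Eif2d, another such carrier, passed no test, at -0.05 and -0.09. With library totals alone Eif2d (-0.52) and Eif2s3x (-0.48) were called as fallen with Au_TCPP. The 5 tested carriers then gave 2 rises and 2 falls with Au_TCPP, in place of 3 and 0.

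Of the 5 subunits of the exchange factor eIF2B, which recharges eIF2 with GTP, 4 rose with Cu_TCPP (median 0.38) and 5 with Au_TCPP (median 0.51). With library totals alone 2 rose with Cu_TCPP, and 1 rose and 1 fell with Au_TCPP. The 5 genes together took 0.0252% of all counts in Control, 0.0319% with Cu_TCPP and 0.0256% with Au_TCPP (two-sided exact permutation p = 0.1 and 0.9 against Control, with 0.1 the smallest that 3 against 3 libraries allow). Eif2b3, the gamma subunit, had 21.6, 20.4 and 19.1 CPM in the Control libraries, 39.0, 39.9 and 40.7 CPM with Cu_TCPP and 42.0, 42.9 and 46.9 CPM with Au_TCPP. Both treated groups lay apart from Control, and the rise was 0.97 ± 0.09 (SE), adjusted p = 2.4e-06, with Cu_TCPP and 1.11 ± 0.09 (SE), adjusted p = 6.6e-08, with Au_TCPP. Eif2b5, the epsilon subunit that carries the catalytic activity, had 101, 102 and 101 CPM in the Control libraries, 126, 138 and 133 CPM with Cu_TCPP and 118, 116 and 113 CPM with Au_TCPP. It rose by 0.38 with Cu_TCPP (adjusted p = 0.00089) and by 0.19 with Au_TCPP (adjusted p = 0.035), a rise lost in 14 of 20 fits and called as a fall with library totals alone (-0.23). Eif2b1 rose by 0.39 and 0.38 with Cu_TCPP and Au_TCPP, and Eif2b4 by 0.30 and 0.58. Eif2b1 was at -0.03 with Au_TCPP with library totals alone. Eif2b2 was at 0.12 with Cu_TCPP without passing the test and rose by 0.51 with Au_TCPP.

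Of the 14 subunit genes of eIF3, 5 rose with Cu_TCPP (median 0.19) and 13 with Au_TCPP (median 0.86), with none fallen; with library totals alone 10 rose and 2 fell with Au_TCPP (median 0.44). Eif3e had 427, 413 and 409 CPM in the Control libraries, 435, 355 and 423 CPM with Cu_TCPP and 872, 883 and 939 CPM with Au_TCPP. The Control and Cu_TCPP libraries overlapped and every Au_TCPP library was above all of these, a rise of 1.11 ± 0.092 (SE), adjusted p = 7.5e-08. Eif3m, Eif3h and Eif3k rose with Au_TCPP by 1.08, 1.03 and 1.01, and passed no test with Cu_TCPP (0.10, -0.18 and 0.01). Eif3g, Eif3f, Eif3i and Eif3d rose with Au_TCPP by 0.91, 0.82, 0.72 and 0.71. Of the exonic bases of Eif3d, 43.3% lie under an antisense gene, so its counts may hold reads of both.

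Eif3a, Eif3b, Eif3c and Eif3l had the lowest values of the complex with Au_TCPP, between 0.18 and 0.30. Eif3a, its largest subunit, had 672, 673 and 627 CPM in the Control libraries, 759.5, 736 and 743 CPM with Cu_TCPP and 722, 647 and 863 CPM with Au_TCPP. The Au_TCPP libraries spanned those of both other groups, and Eif3a passed no test (0.18 with Cu_TCPP and 0.18 with Au_TCPP). With Au_TCPP it was at -0.25 with library totals alone and was called as risen with the offsets for gene length. Eif3b, which binds Eif3a, had 268, 266 and 273 CPM in the Control libraries, 389.6, 431 and 408 CPM with Cu_TCPP and 351, 263 and 353 CPM with Au_TCPP. It rose by 0.61 ± 0.107 (SE), adjusted p = 0.00047, with Cu_TCPP. With Au_TCPP its libraries overlapped those of Control (0.26, adjusted p = 0.04, lost in 16 of 20 fits), and it was lower than with Cu_TCPP by a log2 fold change of -0.34 (adjusted p = 0.011). Eif3c and Eif3l rose with Au_TCPP by 0.30 and 0.19, but with library totals alone Eif3c was at -0.13, not passed, Eif3b at -0.17, not passed, and Eif3l at -0.23, called as fallen. The rise of Eif3l with Au_TCPP was lost in 13 of 20 fits. Eif3j1 and Eif3j2, near-identical genes of the loosely bound subunit between which reads could be split, rose by 0.45 and 0.39 with Cu_TCPP and by 1.01 and 1.06 with Au_TCPP. In Eif3j1, 20.15% of the exonic bases overlap other genes, mostly Spg11 on the opposite strand.

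Of the 9 tested genes of eIF4F and its cofactors, 4 rose and 2 fell with Cu_TCPP, and 6 rose and 3 fell with Au_TCPP (5 and 3 with library totals alone). Eif4g1, the main scaffold that joins the cap-binding protein, the helicase and eIF3, had 763, 748 and 752 CPM in the Control libraries, 1098, 1206 and 1089 CPM with Cu_TCPP and 376, 354 and 445 CPM with Au_TCPP. Each Cu_TCPP library was above and each Au_TCPP library below every Control library. Eif4g1 rose by 0.58 ± 0.094 (SE), adjusted p = 0.00024, with Cu_TCPP and had a log2 fold change of -0.95 ± 0.095 (SE), adjusted p = 5.5e-07, with Au_TCPP. Between the materials the difference was -1.53 ± 0.096 (SE), adjusted p = 5.2e-09, 2.89-fold lower with Au_TCPP. With the offsets for gene length the fall with Au_TCPP was -0.64 and still called. Eif4g2, a relative that lacks the part binding eIF4E and serves cap-independent initiation, had 560.0, 526 and 538 CPM in the Control libraries, 814, 701 and 792 CPM with Cu_TCPP and 1033, 856 and 1035 CPM with Au_TCPP, and rose by 0.51 and 0.85 (adjusted p = 0.0008 and 1.9e-06). It is the longer gene of the pair, at 10166 nt against 7301 nt. Eif4g3, a scaffold at 10.6 to 16.7 CPM, fell with Cu_TCPP (-0.45) and, with libraries that overlapped Control, with Au_TCPP (-0.36), a call lost in 9 of 20 fits. Eif4g3 is 11063 nt long, and with the offsets for gene length its value with Au_TCPP was 0.08 against Control, not passed, and 0.44 against Cu_TCPP, called as higher.

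Eif4e, the cap-binding protein, had 226, 209.5 and 209 CPM in the Control libraries, 333, 306 and 334 CPM with Cu_TCPP and 431, 354 and 444 CPM with Au_TCPP. In these CPM the 3 groups did not overlap, and Eif4e rose by 0.59 with Cu_TCPP and by 0.93 with Au_TCPP (adjusted p = 0.00027 and 8.3e-07). Eif4e was called as higher with Au_TCPP than with Cu_TCPP, a call lost in 4 of 20 fits (-0.04 with library totals alone, not passed). Its relative Eif4e2, known for repressing bound mRNAs, rose by 0.42 and 0.94. The 2 helicase genes differed. Eif4a1, the main one, had 944, 962 and 976 CPM in the Control libraries, 1048, 1123 and 1090 CPM with Cu_TCPP and 1604, 1366 and 1703 CPM with Au_TCPP, which was 0.18 with Cu_TCPP (adjusted p = 0.13) and a rise of 0.70 with Au_TCPP (adjusted p = 8.1e-06). Eif4a2 had 324, 317 and 292 CPM in the Control libraries, 313, 257 and 281 CPM with Cu_TCPP and 897, 947 and 844 CPM with Au_TCPP. Control and Cu_TCPP overlapped, and with Au_TCPP every library was above all of them, a rise of 1.53 ± 0.095 (SE), adjusted p = 4.8e-09.

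Reads of Eif4a1 may be split with the processed pseudogene Eif4a-ps4, which had 3317 to 3495 counts in Control, 3691 to 4069 with Cu_TCPP and 3226 to 4074 with Au_TCPP. The gene of Eif4a2 hosts small RNAs, and 13.3% of its exonic bases overlap other genes. Eif4b, which stimulates the helicase, had 963, 964 and 988 CPM in the Control libraries, 738, 761 and 745 CPM with Cu_TCPP and 735, 731 and 769 CPM with Au_TCPP. All treated libraries were below Control, and the log2 fold changes were -0.38 ± 0.076 (SE), adjusted p = 0.0012, and -0.38 ± 0.076 (SE), adjusted p = 0.00041, with Cu_TCPP and Au_TCPP. Eif4h, another such cofactor, was at 0.14 with Cu_TCPP without passing the test and rose by 0.38 with Au_TCPP (-0.04 with library totals alone). Eif4a3, a related helicase of the exon junction complex, rose by 0.49 and 0.46, but was at 0.03 with Au_TCPP with library totals alone.

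RefSeq promoter windows of 300 bases (250 before to 50 after a start, build GRCm38.p6) were at hand for 46 of the 60 tested members. The E-box CACGTG, its own reverse complement and the site read by MYC and related factors, was in a window of 13 members, 28.3%, against 12.0% of the 9119 tested protein-coding genes with a window and 7.15% of all 32851 windows. The 13 were Eef1akmt4, Eef2, Eef2k, Eif1b, Eif3a, Eif3f, Eif3k, Eif4a1, Eif4e, Eif4g1, Eif4h, Eif5a and Eif5a2. With Au_TCPP 8 of the 13 rose, 3 (Eif4g1, Eef2k and Eif5a2) fell, and 2 (Eef1akmt4 and Eif3a) did not pass. Of all 60 tested factors 73.3% rose and 13.3% fell with Au_TCPP, and of all genes tested 34.4% and 34.7%. A link of the E-box to these changes was not tested. The stretches below, each with the E-box in capitals and touching no exon of GENCODE M21, are given because their genes moved differently. They lie at chr16:20672646-20672705 (plus strand), chr11:69672580-69672639 (minus strand), chr11:69921428-69921487 (minus strand), chr10:81176561-81176620 (plus strand) and chr7:120842773-120842830 (plus strand).
Eif4g1: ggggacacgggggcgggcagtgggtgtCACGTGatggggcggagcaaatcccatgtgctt
Eif4a1: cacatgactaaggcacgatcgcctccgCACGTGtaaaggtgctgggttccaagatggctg
Eif5a: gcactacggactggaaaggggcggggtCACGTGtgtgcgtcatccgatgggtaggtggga
Eef2: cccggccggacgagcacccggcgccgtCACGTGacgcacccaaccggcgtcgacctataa
Eef2k: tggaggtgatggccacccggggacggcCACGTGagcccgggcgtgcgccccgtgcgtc

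Of 7 other motifs searched on both strands, CCGGAAG, the core of sites for ETS factors, was in windows of 16 members (34.8%, against 21.2% of the tested genes), and CCAAT in 15 (32.6% against 43.9%). TGATGNAA, bound by C/EBP and ATF factors, was in 2 (4.35% against 2.64%), Eef2k and Eif2s3x, and ATTGNATCA, a second form, in none (0.34% of the tested genes). GATTGGCT, which holds a CCAAT on its other strand, was in 2 (4.35% against 6.92%), TCTCGCGA in Eif4a3 and Eif5 (4.35% against 2.59%), and the palindrome of NRF1 in Eif3k (2.17% against 2.46%). A match describes letters in these windows and is not a site of binding.

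The 4 genes of proteins that bind eIF4E, which hold it from the scaffold, gave 2 rises with Cu_TCPP and 1 rise and 2 falls with Au_TCPP. Eif4ebp2 had 181, 172 and 185 CPM in the Control libraries, 206, 232 and 214 CPM with Cu_TCPP and 47.8, 54.0 and 64.6 CPM with Au_TCPP. Every Cu_TCPP library was above Control and every Au_TCPP library far below, and the log2 fold changes were 0.28 ± 0.101 (SE), adjusted p = 0.039, and -1.69 ± 0.106 (SE), adjusted p = 5.0e-09. With the offsets for gene length the fall was -1.47, and the rise with Cu_TCPP was lost in 6 of 20 fits. Eif4ebp1 had 226, 232 and 240.3 CPM in the Control libraries, 237, 306 and 257 CPM with Cu_TCPP and 425, 335 and 403 CPM with Au_TCPP, with overlap between Cu_TCPP and Control (0.20, not passed) and a rise of 0.74 with Au_TCPP (adjusted p = 3.2e-05). Eif4enif1, which carries eIF4E into the nucleus, rose with Cu_TCPP (0.24, lost in 3 of 20 fits) and fell with Au_TCPP (-0.69, adjusted p = 1.7e-06). Eif4ebp3 stayed under 1 CPM in every library.

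Per gene length, the balance within these families differed by group. The ratio of FPKM values (read counts scaled by gene length and library size, deposited by the authors) of Eif4g1 to Eif4g2 was 1.94 ± 0.0432 in Control, 2.06 ± 0.288 with Cu_TCPP, 0.56 ± 0.0473 with Au_TCPP (SD, n = 3). The ratio of Eif4ebp2 to Eif4ebp1 was 0.292 ± 0.0118 in Control, 0.311 ± 0.0216 with Cu_TCPP, 0.0549 ± 0.0105 with Au_TCPP. That of Eif4a2 to Eif4a1 was 0.263 ± 0.0182 in Control, 0.212 ± 0.0285 with Cu_TCPP, 0.473 ± 0.0819 with Au_TCPP. In all 3 ratios the Au_TCPP libraries did not overlap the others. The pairs were picked after their values were seen. A ratio within a library does not depend on its scaling, so the description holds for any library total. It does not say which partner changed, and it keeps the trend with gene length. Eif4ebp2 (5784 nt) is longer than Eif4ebp1 (2196 nt) and Eif4a2 (5338 nt) than Eif4a1 (4334 nt), while Eif4g1 (7301 nt) is shorter than Eif4g2 (10166 nt). The part of length in these ratios was not tested. By FPKM, Eef1a1, Eef2 and Eif5a ranked 1, 2 and 3 among the 60 genes in every group, while Eif4g1 ranked 14 in Control, 11 with Cu_TCPP and 33 with Au_TCPP, Eif5 ranked 23, 16 and 10, and Eif4ebp2 33, 35 and 50.

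**Figure D4:**
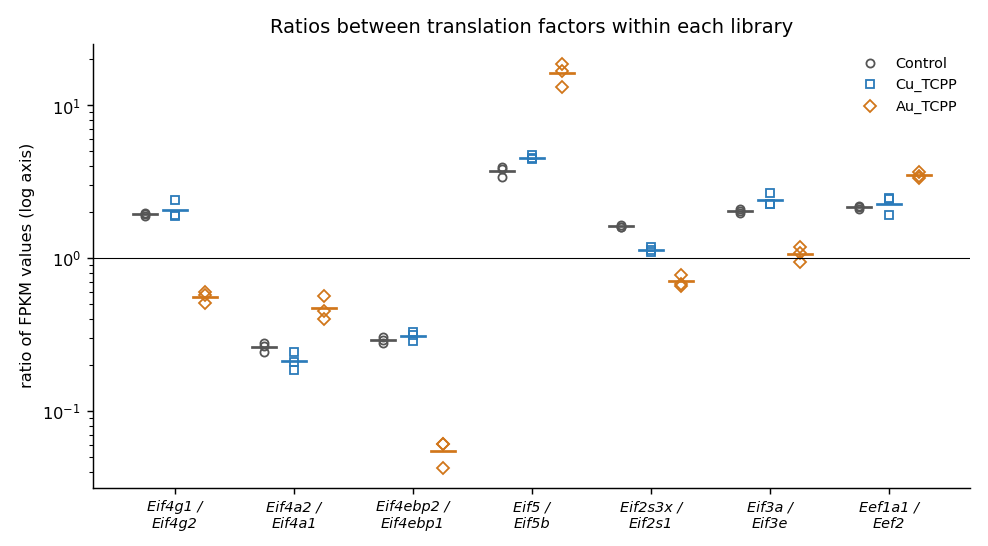
Ratio of FPKM values between 2 genes (y axis, log scale) within each library, as symbols by group with the group mean as a bar, for 7 pairs of translation factors. Eif4g1 is above Eif4g2 in every Control and Cu_TCPP library and below it in every Au_TCPP library, and Eif5 over Eif5b has means of 3.74, 4.55 and 16.3.

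Eif5a, the hypusine-bearing factor that helps ribosomes past difficult peptide bonds, had 952, 985 and 992 CPM in the Control libraries, 1572, 1731 and 1602 CPM with Cu_TCPP and 1754, 1292 and 1733 CPM with Au_TCPP. All treated libraries were above Control, the treated groups overlapped, and the rise was 0.74 ± 0.108 (SE), adjusted p = 0.00011, with Cu_TCPP and 0.71 ± 0.108 (SE), adjusted p = 4.0e-05, with Au_TCPP. Its relative Eif5a2, at 13.1 to 22.9 CPM, was at 0.23 with Cu_TCPP (adjusted p = 0.077) and at -0.49 with Au_TCPP (adjusted p = 0.0008), a fall.

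In eEF1, which brings aminoacyl-tRNA to the ribosome, 2 of the 5 tested genes rose with Cu_TCPP and 5 of 5 with Au_TCPP (median 0.92, and 5 of 5 with library totals alone). Eef1a1, the carrier itself and the most abundant member, had 9880, 10030 and 10150 CPM in the Control libraries, 8668, 7634 and 9433 CPM with Cu_TCPP and 20030, 17280 and 19420 CPM with Au_TCPP. All Cu_TCPP libraries were below and all Au_TCPP libraries above Control. The log2 fold change was -0.22 ± 0.091 (SE), adjusted p = 0.063, with Cu_TCPP, short of the threshold but past it in 5 of 20 other fits, and 0.92 ± 0.092 (SE), adjusted p = 5.4e-07, with Au_TCPP. The subunits of its exchange complex rose with Au_TCPP as well: Eef1b2 by 1.19, Eef1g by 0.73 and Eef1d by 0.66. With Cu_TCPP, Eef1d rose by 0.45, and Eef1b2 (-0.08) and Eef1g (0.22) did not pass. Eef1e1, counted here by name though a scaffold of the aminoacyl-tRNA synthetase complex, rose by 0.48 and 1.24.

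Eef2, which moves the ribosome along the mRNA, had 5983, 6149 and 6396 CPM in the Control libraries, 4675, 5318 and 5167 CPM with Cu_TCPP and 7229, 6891 and 7499 CPM with Au_TCPP. Every Cu_TCPP library was below and every Au_TCPP library above Control. It fell by 0.29 on the log2 scale with Cu_TCPP (adjusted p = 0.011, lost in 5 of 20 fits) and rose by 0.22 with Au_TCPP (adjusted p = 0.024). The rise was lost in 9 of 20 fits, and with library totals alone Eef2 was called as fallen (-0.20). Eef2k, the kinase that inactivates eEF2, had 38.8, 44.3 and 42.3 CPM in the Control libraries, 31.0, 37.4 and 33.5 CPM with Cu_TCPP and 13.6, 22.5 and 14.3 CPM with Au_TCPP. It fell with Au_TCPP, by 1.31 ± 0.156 (SE), adjusted p = 3.3e-06, where replicate 2 was the highest of its group, and did not pass with Cu_TCPP (-0.30, adjusted p = 0.12).

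Of the 5 methyltransferases, 2 rose with Cu_TCPP, and 1 rose and 1 fell with Au_TCPP. Eef2kmt, which methylates eEF2, had 35.5, 34.8 and 35.5 CPM in the Control libraries, 37.0, 41.0 and 40.6 CPM with Cu_TCPP and 18.8, 15.8 and 17.0 CPM with Au_TCPP. It fell with Au_TCPP to under the lowest Control library in all 3 libraries, by 1.04 ± 0.097 (SE), adjusted p = 2.6e-07. In Eef2kmt, 23.0% of the exonic bases overlap Alg1 or an antisense gene. Of those that act on eEF1A, Eef1akmt1 rose with Cu_TCPP (0.58), Eef1akmt2 rose with Cu_TCPP (0.31, lost in 8 of 20 fits) and with Au_TCPP (0.92), and Eef1akmt3 and Eef1akmt4 passed no test.

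Set directly against Cu_TCPP, Au_TCPP had the largest rises in Eif1 (1.70 ± 0.084 (SE), adjusted p = 5.6e-10), Eif4a2 (1.66 ± 0.095) and Eif5 (1.52 ± 0.135), followed by Eef1b2 (1.27), Eif3h (1.21), Eif3e (1.15) and Eef1a1 (1.14). The largest falls were those of Eif4ebp2 (-1.97 ± 0.106 (SE), adjusted p = 1.3e-09), Eif4g1 (-1.53), Eef2kmt (-1.20), Eef2k (-1.01) and Eif4enif1 (-0.92). By group, 10 of 14 eIF3 genes were higher and 1 lower, 6 of 9 of eIF4F and its cofactors higher and 1 lower, 6 of 8 of start codon selection higher and 1 lower, and 4 of 5 of eEF1 higher. With library totals alone these became 7 and 4, 1 and 2, 4 and 2, and 3 and 0. Some factors had values near each other with both materials and passed no test between them: Eif4b (-0.01 ± 0.076), Eif5a (-0.04 ± 0.108), Eif4a3 (-0.04 ± 0.089) and Eif3a (0.00 ± 0.1), but all 4 were called as lower with Au_TCPP with library totals alone. Leaving out 1 library ended the calls of Eif2b4, Eif2b5, Eif2s3x, Eif4e, Eif4g2 or Eif4h, with adjusted p between 0.052 and 0.25.

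In the table's coordinates (mm10, per the submitters' processing notes), members described above lie as follows: Eif5 at chr12:111538016-111546752, Eif1 at chr11:100319885-100322096, Eif4g1 at chr16:20668313-20692884, Eif4ebp2 at chr10:61428491-61452661 and Eef2k at chr7:120842831-120907450. Eif4a2 is at chr16:23107444-23114136, on the chromosome of Eif4g1. Of the 64 genes, 61 have the same coordinates in GENCODE M21, and 10 share over 10% of their exonic bases with another gene.

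The members took 3.35% ± 0.0318 of all counts in Control, 3.26% ± 0.0680 with Cu_TCPP and 4.05% ± 0.0854 with Au_TCPP (SD, n = 3). The Au_TCPP libraries were all above the others, and those of Cu_TCPP overlapped Control (3.32% to 3.38% in Control, 3.20% to 3.33% with Cu_TCPP). Eef1a1 alone took 1.12%, 0.925% and 1.57% and Eef2 0.689%, 0.545% and 0.599%, in the same order. Without these 2 genes the share was 1.55% ± 0.00170, 1.79% ± 0.0159 and 1.88% ± 0.0565, with both treated groups wholly above Control. Two-sided exact permutation tests gave p = 0.1 for Au_TCPP against Control on all members and for both materials without Eef1a1 and Eef2, the smallest p that 3 against 3 libraries allow, and p = 0.2 for Cu_TCPP on all members. A share of counts is a share of library totals, with no TMM factor.

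**Figure D5:**
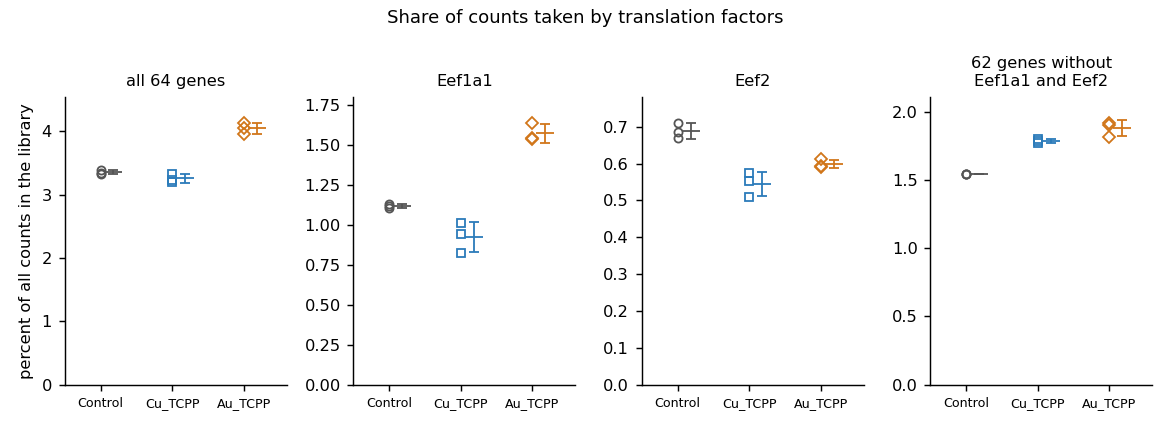
Percent of each library's counts (y axis, from 0) taken by all 64 genes, by Eef1a1, by Eef2 and by the other 62, with 1 symbol per library and mean ± SD beside it. The Au_TCPP libraries lie highest for all genes and for Eef1a1, and Control is highest for Eef2 and lowest for the other 62.

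Of the 50 other genes of the pathway listed, 49 were tested. With Cu_TCPP 14 rose and 8 fell (median 0.14), where 19.2% of all genes tested were higher and 21.2% lower. With Au_TCPP 22 rose and 13 fell (median 0.09), where 34.4% of all genes tested were higher and 34.7% lower. With library totals alone 14 rose and 8 fell with Cu_TCPP, and 12 rose and 25 fell with Au_TCPP. The control of eIF2 phosphorylation held the largest change. Ppp1r15a (GADD34), which directs the phosphatase that restores eIF2, had 12.8, 12.4 and 12.7 CPM in the Control libraries, 8.1, 13.5 and 10.5 CPM with Cu_TCPP and 433, 387 and 485 CPM with Au_TCPP. Control and Cu_TCPP overlapped and Au_TCPP lay far above, by a log2 fold change of 5.11 ± 0.154 (SE), adjusted p = 5.4e-12, a 34.5-fold rise. Its constitutive relative Ppp1r15b rose by 0.36 and 0.43. Among the 4 eIF2 kinases none passed with Cu_TCPP; with Au_TCPP Eif2ak2 (PKR) rose by 0.39, and Eif2ak1 (HRI), Eif2ak3 (PERK) and Eif2ak4 (GCN2) fell, at -0.36, -0.45 and -0.68. The Au_TCPP libraries of Eif2ak2, at 78.0, 105.2 and 65.2 CPM, overlapped those of Control at 65.3, 64.8 and 59.0 CPM, with replicate 2, the library with most mitochondrial counts, the highest. Its value was -0.01 with library totals alone, where 1 gene of these 6 rose with Au_TCPP, in place of 3, and 3 fell. With offsets for gene length 3 of the 6 rose with Au_TCPP and 1 fell, in place of 3.

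Of 12 genes that control eIF4F and mRNAs with a terminal oligopyrimidine tract, 1 rose and 6 fell with Cu_TCPP, and 2 rose and 8 fell with Au_TCPP (2 and 10 with library totals alone). Pdcd4, an inhibitor of the eIF4A helicase, had 43.0, 37.5 and 35.9 CPM in the Control libraries, 14.9, 15.3 and 16.4 CPM with Cu_TCPP and 32.5, 38.8 and 28.3 CPM with Au_TCPP. It fell with Cu_TCPP (-1.32 ± 0.121 (SE), adjusted p = 2.3e-06) and did not pass with Au_TCPP (-0.22). Larp1, which binds those mRNAs, rose with Cu_TCPP (0.47) and fell with Au_TCPP (-1.27). Tsc2 and Tsc1, which restrain mTOR, fell with both materials (-0.37 and -0.57 with Cu_TCPP, -1.25 and -1.10 with Au_TCPP). With Au_TCPP, Mtor (-1.29) and its partner Rptor (-0.87) fell too, and the mTOR activator Rheb (1.43) and the mTOR inhibitor Ddit4 (0.95) rose. Mtor, Rptor, Tsc1 and Tsc2 are long genes, at 10109, 13471, 11833 and 9620 nt. With offsets for gene length, 3 of the 12 genes rose and 9 fell with Au_TCPP (median -0.67, and -0.95 without the offsets).

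In release and ribosome recycling, 4 of 5 tested genes rose with each material, and none fell (1 fell with Au_TCPP with library totals alone). Abce1, which splits ribosomes after termination, rose by 0.77 and 0.75, Denr by 0.42 and 1.25, and the release factor Etf1 by 0.39 and 1.24. Its partner Gspt1 rose with Cu_TCPP (0.62) and was at 0.05 with Au_TCPP. Of 5 genes of poly(A) binding, none rose and 1 fell with Cu_TCPP, and 4 rose with Au_TCPP (2, with 1 fallen, with library totals alone), led by Paip2 (1.49), an inhibitor of the poly(A) binding protein. Of the scanning helicases, Ddx3x rose with both (0.64 and 1.19) and Dhx29 with Cu_TCPP (0.88; -0.02 with Au_TCPP), and with library totals alone 1 of these rose and 1 fell with Au_TCPP.

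Diphthamide synthesis, which builds the modified histidine of eEF2, had 4 of 7 genes risen with Cu_TCPP, Dph2 first (0.91), and 5 with Au_TCPP, Dph3 first (0.95), of which library totals alone left 1, with 1 gene fallen. Of the enzymes that make hypusine on eIF5A, Dhps rose with Au_TCPP (0.28, and -0.14 with library totals alone) and passed no test with Cu_TCPP (-0.06), and Dohh passed none. The 10 mitochondrial factors gave 2 risen and 1 fallen with Cu_TCPP, with Gfm1 first (0.69), and 2 risen and 2 fallen with Au_TCPP, with Mtrf1l first (1.28; 1 risen and 8 fallen with library totals alone). The shares over all genes, 19.2% risen and 21.2% fallen with Cu_TCPP, and 34.4% and 34.7% with Au_TCPP, are the background of these counts.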

How the data were processed

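RNA of 9 libraries of 4T1 cells, 3 per group as their titles give them, was sequenced by the submitters. Read counts of each gene stand in the deposited table, not normalized further by the authors, per the file headers, and FPKM, made by the authors from counts and gene length, per the file headers. These FPKM equal the count per length and library total times 1 factor per library, between 0.875 and 1.24. The authors also deposited normalized mean signal per group, log2 fold changes and p-values, per the file headers, none of which was used. The submitters' processing notes name mm10, Bowtie 0.12.9, Cufflinks 2.1.1 and HTSeq. No source used here tells if strand was used in counting.

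Counts were tested with edgeR 4.0.16 (R 4.3.3; TMM, filterByExpr, robust quasi-likelihood fit of all 9 libraries, Benjamini-Hochberg over 13915 genes, called under 0.05). The standard error is the absolute log2 fold change over the square root of F. Library totals of 15477324 to 17494776 set the counting precision. Other fits used RLE factors, library totals alone, no filter or 1 CPM in 3 libraries, the 6 libraries of a comparison, a replicate block, DESeq2 1.42.0, limma 3.58.1 on log2(FPKM + 1) or log2(FPKM + 0.1), offsets for gene length (spline, 5 degrees of freedom), protein-coding genes alone, a log2 fold change of at least 1 and leaving out each library. The fit was tested on simulated data.

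The members and gene lists were chosen with earlier results of these data known. The rule for named genes takes, per comparison and complex, the 3 called members with the smallest p, the called member with the largest change (with none called, the member of highest mean CPM) and a fixed set of 15 genes, and in each pathway group the called gene with the smallest p. Other genes printed were chosen after their values were seen. Promoters are from RefSeq. Tables were handled in Python 3.11.15 (pandas 2.3.3, numpy 2.4.6, scipy 1.17.1) and plotted with matplotlib 3.10.9.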

Additional observations from a re-analysis of the deposited data

How the results depend on the processing

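With Cu_TCPP, the 29 risen factors became 1 at a log2 fold change of at least 1 and 19 to 38 without 1 library, and the 4 fallen became 0, and 1 to 7. The risen were 40 with the 6 libraries of the comparison and 42 with offsets for gene length. With these offsets the median of all genes went from -0.01 to 0.09, and that of the factors from 0.23 to 0.34. The fallen were 7 with the 6 libraries of the comparison and 2 with no filter on low counts, with limma on log2(FPKM + 1) or log2(FPKM + 0.1), and with offsets for gene length. With Au_TCPP against Control, a log2 fold change of at least 1 left 17 risen and 3 fallen, and library totals alone gave 16 fallen. Against Cu_TCPP it left 7 higher and 4 lower, and library totals alone gave 16 and 21. Library totals alone also turned the sign, with Au_TCPP against Control, of the factors Eef1akmt1 (-0.31), Eef2 (-0.20), Eif2a (-0.08), Eif2b1 (-0.03), Eif2b5 (-0.23), Eif3a (-0.25), Eif3b (-0.17), Eif3c (-0.13), Eif3l (-0.23), Eif4h (-0.04) and Eif5b (-0.35), and of the pathway genes Dhps (-0.14), Dph2 (-0.12), Dph6 (-0.10), Eif2ak2 (-0.01), Gfm1 (-0.09), Gspt1 (-0.38), Mrrf (-0.41), Mtif2 (-0.33) and Pabpc4 (-0.36). Against Cu_TCPP it turned Eif1ad (-0.28), Eif2b3 (-0.23), Eif2b4 (-0.09), Eif3c (-0.25), Eif4e (-0.04), Eif4g2 (-0.04), Eif4h (-0.13), Dhps (-0.04), Mrrf (-0.06) and Ppp1r15b (-0.30). Offsets for gene length turned, with Au_TCPP against Control, Eef1akmt1 (-0.29), Eif4g3 (0.08) and Rps6kb1 (0.27). These cover values called in either fit. The signs with library totals turn by construction, since the scaling moves all genes. The cause of the other changes was not tested. The replicate block gave 28 risen and 4 fallen for Cu_TCPP, 41 and 8 for Au_TCPP against Control, and 34 and 10 against Cu_TCPP. Over genes, the deviations of same-numbered libraries from their group means correlated at r from -0.0846 to 0.0897. With 3 libraries a group this cannot tell whether the numbers pair the samples, and the labels do not say. DESeq2 gave 34 and 3, 44 and 8, and 34 and 11. Eif4ebp3, under 1 CPM in every library, is limited by depth.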
